A study of Mus musculus with 8 samples.

Results

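The nuclear-encoded subunits of the respiratory chain and of ATP synthase were examined in photoreceptor cells of Lpcat1 heterozygous (HZ) and knockout (KO) mice. Genes were taken by symbol: Nduf subunits of complex I (Ndufa, Ndufb, Ndufc, Ndufs and Ndufv, without the Ndufaf assembly factors), Sdha to Sdhd of complex II, Uqcr genes of complex III, the Cox4i, Cox5, Cox6, Cox7 and Cox8 families of complex IV, and Atp5 genes of ATP synthase. This gave 84 genes with 104 probes, of 22911 named genes with 32994 probes on the array. A gene with several probes was represented by the probe selected on the highest mean signal over the 8 arrays, a choice that used measured values but not the genotype. Of the 84 genes, 82 passed the filter on dim probes: 38 of complex I, 4 of complex II, 8 of complex III, 15 of 17 of complex IV and 17 of ATP synthase. Cox5b had no probe matched by accession and is missing from the 17 genes of complex IV. Cox7b2 and Cox8c did not pass the filter, and both were well above background on at most 1 array.

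The study asked how loss of LPCAT1, an enzyme that makes saturated phosphatidylcholine, affects retinal photoreceptors. RNA came from mice labelled C57BL/6 (a line of the N substrain that the study crossed to the J substrain against the rd8 mutation) at postnatal day 8, with 4 samples labelled HZ and 4 labelled KO. Retinas were dissociated and the photoreceptor cells collected with magnetic beads against CD73, a surface protein encoded by Nt5e. The deletion was global, so cells other than photoreceptors also carried it, and the controls were heterozygous and not wildtype.

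The respiratory chain passes electrons from NADH through complex I, or from succinate through complex II, to ubiquinone, and then through complex III and cytochrome c to complex IV, where oxygen is reduced. The protons pumped on the way drive ATP synthase. Photoreceptors pack mitochondria into the inner segment and have a high demand for ATP, and complexes I and III are well-known sources of superoxide.

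The targeted gene was examined first. The Lpcat1 probe read -0.81, -0.95, -1.02 and -1.17 on HZ replicates 1 to 4 and -0.97, -1.16, -1.11 and -0.85 on KO replicates 1 to 4 (log2 signal relative to the 75th percentile of each array, the scale of all levels given here). The groups overlapped and differed by -0.04 ± 0.11 (KO minus HZ, log2, ± SE). Where this probe lies relative to the deleted part of the gene was not analysed here, so it did not check the labels, and HZ and KO stand for the labelled groups throughout. The photoreceptor markers were present: all 20 rod and all 12 cone markers were well above background on all 8 arrays. Nt5e averaged 4.33 in HZ and 4.21 in KO, and the photoreceptor factor Crx 6.97 and 7.11; Crx and Nt5e were picked out after their values were seen. All 8 arrays shared 1 slide, with KO in slide row 1 and HZ in row 2, so that row and genotype cannot be told apart.

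Most subunit transcripts lay slightly higher in KO than in HZ, by amounts close to the error of a single gene. Of the 82 tested subunits, 61 were higher and 21 lower, with a median difference of 0.08 (log2, KO minus HZ). All 14844 tested genes, taken the same way by their brightest probe, had a median of 0.03, with 8437 higher and 6407 lower. The SE of a subunit's difference had a median of 0.10. The difference was smaller than 1.2-fold for 73 of the 82 subunits (89.0%) and smaller than 1.5-fold for 79 (96.3%), against 79.1% and 95% of all tested genes. For 74 of the 82 subunits the 95% confidence interval lay wholly within 1.5-fold in either direction, against 10115 of the 14844 tested genes (68.1%), so for those a larger change was outside the interval.

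In limma, 0 of 34303 probes (0.0%) passed the stricter thresholds of the study's methods (1.2-fold with an adjusted p of 0.05). The paper states these stricter thresholds for its arrays of wildtype and KO whole retina, which are other samples than those here. Limma had 2803 probes at an unadjusted p under 0.05, and the methods' t-test with the same adjustment called 2 past the stricter thresholds. At an unadjusted p under 0.05, 8 subunits were higher in KO, where 5.81% of all tested genes were, and 1 was lower, where 3.49% were. The 8 included Ndufa8, Cox7a2l, Ndufb7, Ndufb5, Atp5h, Ndufa12 and Ndufs3, and the 1 lower subunit was Cox8b. Groups that did not overlap were found for 9 subunits in the higher direction (the same 8 and Ndufb4), where 5.48% of all tested genes did not overlap, and for Cox8b in the lower direction, where 2.52% did not. By brightest probe, the looser thresholds of the methods (1.5-fold with an adjusted p of 0.5) were passed by Ndufa8 in the higher direction, with 0.33% of all tested genes, and by Cox8b in the lower direction, with 1.13%. With the replicate number as a block, 6 subunits were higher and 2 lower at an unadjusted p under 0.05, the second lower subunit being Cox4i2. Over all probes the block gave 1995 higher and 2082 lower, in place of 1608 and 1195. Which subunits were at an unadjusted p under 0.05 depended on how the signal was taken. With normexp, run on the median spot signal and local background in place of the processed signal, 11 subunits were higher. Only 3 of them (Ndufa8, Cox7a2l and Ndufb5) were among the 8. Over all probes normexp gave 2102 higher, in place of 1608. That alternative changed the signal column and the correction together, and their parts were not tested.

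**Figure D1:**
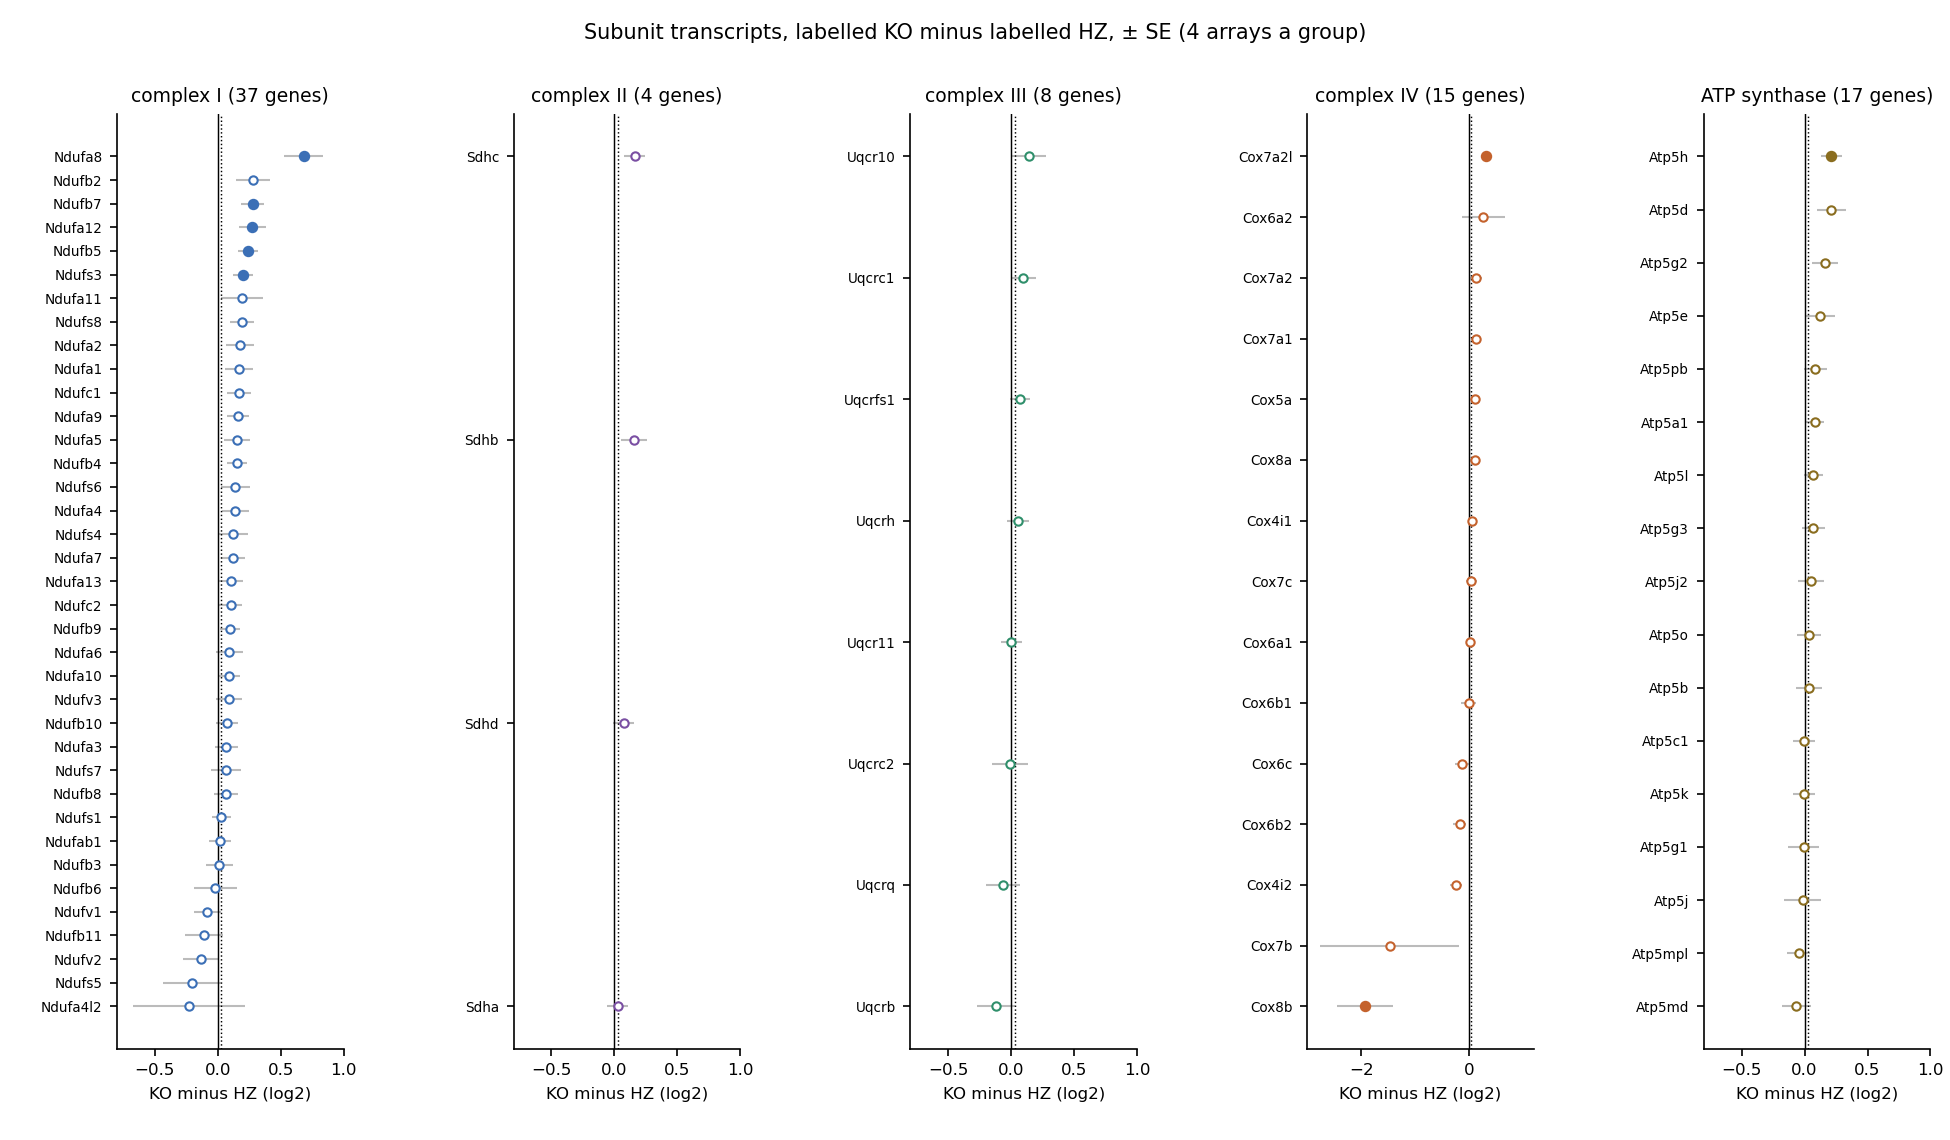
Difference of the tested subunits, without 1 of complex I, between the labelled groups (KO minus HZ, log2; points, estimates; lines, ± SE; 4 arrays a group), by complex, with a wider axis for complex IV. Filled points had an unadjusted p under 0.05, the solid line marks 0 and the dotted line the median of all tested genes (0.03). Most points lie within 0.3 of 0, and Cox8b and Cox7b stand far below the rest.

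Complex I, the entry point for electrons from NADH, had 32 of 38 subunits higher in KO and 6 lower, with a median difference of 0.11 and a range from -0.23 to 0.68. Of the 82 tested subunits, complex I made up 38. It held 6 of the 8 subunits at an unadjusted p under 0.05 in the higher direction, where 5.81% of all tested genes were. The widest difference was that of Ndufa8, an accessory subunit with twin cysteine motifs on the intermembrane space side. Ndufa8 read 1.31, 1.11, 0.77 and 0.71 on HZ replicates 1 to 4 and 1.79, 1.47, 1.57 and 1.78 on KO replicates 1 to 4. Every KO value was above every HZ value, with HZ replicate 1 nearest to the KO group. The means were 0.97 ± 0.29 (SD, n = 4) in HZ and 1.65 ± 0.16 in KO. The difference was 0.68 ± 0.16 (SE; 95% interval 0.32 to 1.04), or 1.6-fold, and limma's adjusted p was 0.368 (0.0727 to 0.791 over the alternatives). Leaving out single arrays moved the difference between 0.59 and 0.79. The looser thresholds were passed with HZ replicate 2 or HZ replicate 4 left out but with none of the other 6 arrays left out.

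Among the core subunits of complex I, which carry its redox centres and quinone site, Ndufs3 differed by 0.20 ± 0.08 (SE, limma's adjusted p = 0.596). Its groups did not overlap, and its difference ranged from 0.09 to 0.23 over the alternatives. With the replicate block, quantile normalization or normexp, Ndufs3 was not among the subunits at an unadjusted p under 0.05. Smaller values were found for Ndufs1 and Ndufv1: Ndufs1, the largest subunit with several iron-sulphur clusters, differed by 0.03 ± 0.07 (0.27 with normexp on the median signal), and Ndufv1, which holds the flavin that takes electrons from NADH, by -0.08 ± 0.11. A second, dimmer probe of Ndufv1 differed by 0.12 ± 0.09, in the opposite direction, and neither exceeded 2 SE. Ndufs4, an accessory subunit of the NADH module whose loss causes disease in mice and humans, differed by 0.12 ± 0.12.

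Among the membrane-arm subunits, Ndufb7 read 5.03, 5.14, 4.98 and 4.98 in HZ and 5.31, 5.23, 5.22 and 5.48 in KO. It differed by 0.28 ± 0.09 (SE; adjusted p = 0.512), without overlap between groups. The value for Ndufb7 was 0.01 with normexp on the median signal. Ndufb5 differed by 0.24 ± 0.08 (adjusted p = 0.53), and its second probe by 0.22 ± 0.10. Ndufa12, an accessory subunit at the joint of the peripheral modules, read between 5.03 and 5.45 in HZ and between 5.52 and 5.58 in KO, a difference of 0.28 ± 0.10 that became 0.00 (-0.0041, with the sign turned) under normexp. Ndufb4 differed by 0.15 ± 0.08 with groups that did not overlap.

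Several complex I subunits below 0 rested on a single array. Ndufs5 read between 5.28 and 5.44 on 7 arrays and 4.36 on KO replicate 4. Its difference was -0.21 ± 0.23 with that array and 0.05 without it. Ndufv2, a core subunit of the NADH module, read 3.95 on KO replicate 4 against 4.42 to 4.59 on the other arrays, and its difference went from -0.13 to 0.00 without that array. Ndufb6 was likewise lowest on KO replicate 4 (2.99, against 3.30 to 3.74), and Ndufb11 on KO replicate 2 (5.28, against 5.77 to 5.96). The differences of Ndufb6 and Ndufb11 were -0.02 and -0.11 with all arrays and 0.14 and 0.04 without the low array. Some subunits above 0 also leaned on a single array. HZ replicate 4 was the lowest array for Ndufs4 (3.10, against 3.42 to 3.64) and for Ndufa4 (4.80, against 5.10 to 5.30). Without HZ replicate 4 the difference of Ndufs4 fell from 0.12 to 0.02 and that of Ndufa4 from 0.14 to 0.05. Ndufa4 and Ndufa4l2 form an isoform pair, of which Ndufa4 is now known as a subunit of complex IV and Ndufa4l2 is induced by low oxygen. Ndufa4 differed by 0.14 ± 0.11, and Ndufa4l2 by -0.23 ± 0.44, with values from -1.17 to 0.40 in HZ and from -1.41 to 0.26 in KO that overlapped almost completely.

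The promoters of complex I and other subunit genes are known to hold sites for NRF1, for ETS factors such as GABPA, and for YY1. RefSeq promoter windows (build GRCm38.p6, 250 bases before to 50 after the start) were at hand for 68 of the 84 genes, in 73 windows. The letters searched, on both strands, were GCGCATGC for NRF1, CCGGAAG for ETS factors, AAGATGGC for YY1, TATAAA for a TATA box and CCAAT for a CCAAT box. The NRF1 letters were in 10 of the 73 windows (13.7%), against 2.71% of all 32851 windows and 4.67% of the windows of tested genes. The ETS letters were in 17 (23.3%, against 8.86% and 15.5%) and the YY1 letters in 10 (13.7%, against 2.75% and 3.92%). The TATA letters were in 9 (12.3%, against 13.6% and 8.09%) and the CCAAT letters in 31 (42.5%, against 37.4% and 37.5%). A match is a description of the letters and not of binding.

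The windows shown are those of 4 subunits and of Cox8b. The 4 held an NRF1, ETS or YY1 match, and their brightest probes were at an unadjusted p under 0.05 in the higher direction. Another probe of Atp5h was lower in KO, and no direction is given for Atp5h below. Cox8b was past the looser thresholds and held none of these 3 motifs. The windows were chosen after the values were seen. Capitals mark the matches to any of the 5 motifs, and each window is written 5′ to 3′ in the direction of the gene. Ndufa8 (chr2:36049289-36049588, minus strand) held the NRF1 letters on the antisense strand from 8 bases before the start. Ndufb7 (chr8:83566508-83566807, plus strand) held the ETS letters from 20 bases before the start and the TATA letters, antisense, from 235 bases before it. Ndufs3 (chr2:90904672-90904971, minus strand) held the ETS letters sense and antisense, and Atp5h (chr11:115419870-115420169, minus strand) held them antisense from 38 bases before the start, beside a pair of antisense CCAAT matches. Cox8b (chr7:140900397-140900696, minus strand) held the TATA letters from base 5 of the annotated transcript.
Ndufa8: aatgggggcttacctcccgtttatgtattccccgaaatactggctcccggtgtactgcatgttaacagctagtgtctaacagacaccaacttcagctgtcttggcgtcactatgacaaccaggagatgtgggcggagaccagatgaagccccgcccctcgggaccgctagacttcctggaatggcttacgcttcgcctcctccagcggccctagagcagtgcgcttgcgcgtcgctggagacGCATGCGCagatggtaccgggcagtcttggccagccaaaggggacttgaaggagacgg
Ndufb7: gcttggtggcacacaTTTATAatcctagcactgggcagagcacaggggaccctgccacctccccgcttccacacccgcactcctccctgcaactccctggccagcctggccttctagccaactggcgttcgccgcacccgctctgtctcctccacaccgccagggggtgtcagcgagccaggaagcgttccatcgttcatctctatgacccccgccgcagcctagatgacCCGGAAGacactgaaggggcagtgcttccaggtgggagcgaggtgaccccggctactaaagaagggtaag
Ndufs3: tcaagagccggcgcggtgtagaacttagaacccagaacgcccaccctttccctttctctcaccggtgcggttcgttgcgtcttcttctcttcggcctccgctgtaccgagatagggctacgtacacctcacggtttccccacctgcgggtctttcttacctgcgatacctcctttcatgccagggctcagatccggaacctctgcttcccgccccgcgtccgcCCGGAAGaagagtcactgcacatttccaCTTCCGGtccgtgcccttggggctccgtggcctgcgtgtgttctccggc
Atp5h: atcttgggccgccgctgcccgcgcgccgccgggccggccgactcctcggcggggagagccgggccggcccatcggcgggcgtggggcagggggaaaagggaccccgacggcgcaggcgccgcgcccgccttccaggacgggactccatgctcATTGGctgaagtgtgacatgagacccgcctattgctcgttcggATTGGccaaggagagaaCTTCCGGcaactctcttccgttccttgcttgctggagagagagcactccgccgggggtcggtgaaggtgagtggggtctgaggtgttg
Cox8b: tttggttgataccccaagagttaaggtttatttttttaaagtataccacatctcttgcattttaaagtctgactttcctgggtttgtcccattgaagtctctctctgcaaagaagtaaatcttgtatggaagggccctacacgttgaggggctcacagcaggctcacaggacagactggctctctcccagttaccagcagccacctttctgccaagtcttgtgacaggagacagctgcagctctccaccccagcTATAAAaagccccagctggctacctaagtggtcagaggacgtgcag

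Complex II, which is also an enzyme of the tricarboxylic acid cycle, had all 4 subunits above 0. Its median difference was 0.12 (0.07 with quantile normalization). The catalytic flavoprotein Sdha differed by 0.02 ± 0.09 and the iron-sulphur subunit Sdhb by 0.16 ± 0.10. The sign of Sdha turned in 2 of 17 alternatives (lowest -0.02), and Sdhb ranged from 0.01 to 0.31 over them. The membrane anchors Sdhc and Sdhd differed by 0.16 ± 0.08 and 0.07 ± 0.08 (Sdhd 0.29 with normexp on the median signal). No subunit of complex II reached an unadjusted p of 0.05 in limma by the processed signal of its brightest probe on all 8 arrays. Sdhd did with normexp, Sdhc without HZ replicate 2 and with the methods' t-test, and Sdhb with the mean of its probes. A second, dimmer probe of Sdhb gave 0.46 ± 0.12 (unadjusted p = 0.00543), so the probes of Sdhb shared a direction and differed in size.

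Complex III had 5 of 8 subunits higher and 3 lower, with a median difference of 0.03, the same to 2 decimals as that of all tested genes. The median was -0.02 with quantile normalization, so no direction is given for complex III. The Rieske iron-sulphur protein Uqcrfs1 differed by 0.07 ± 0.08, and the core proteins Uqcrc1 and Uqcrc2 by 0.10 ± 0.10 and -0.01 ± 0.14. With normexp on the median signal Uqcrc2 was at -0.31 and among the lower subunits at an unadjusted p under 0.05. The extremes were Uqcr10 (0.14 ± 0.13) and Uqcrb (-0.12 ± 0.15). Uqcr10 was low on HZ replicate 1 (5.26, against 5.62 to 5.89 on the other arrays), and without that array it differed by 0.02, while normexp gave 0.38. Cyc1, the cytochrome of complex III that the symbol rule leaves out, and cytochrome c itself (Cycs) were looked up after the other values were seen, and they differed by -0.05 ± 0.14 and 0.09 ± 0.08.

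Complex IV held the lowest subunit of the family. It had 9 of 15 tested subunits higher and 6 lower, a median difference of 0.04 (-0.00 without HZ replicate 4, so no direction is given for complex IV) and a range from -1.93 to 0.31. Cox7a2l, a relative of the Cox7a subunits linked to supercomplexes of complexes III and IV, was the highest of complex IV. Cox7a2l read 5.28, 5.42, 5.34 and 5.11 on HZ replicates 1 to 4 and 5.57, 5.68, 5.55 and 5.61 on KO replicates 1 to 4. All KO values were above all HZ values. The means were 5.29 ± 0.13 (SD, n = 4) and 5.60 ± 0.06, and the difference was 0.31 ± 0.09 (SE; 95% interval 0.10 to 0.52; 1.24-fold) with limma's adjusted p of 0.465. Its value ranged from 0.23 to 0.35 over 17 other settings.

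Cox8b was the lowest. It encodes the isoform of the smallest nuclear subunit that is typical of heart, skeletal muscle and brown fat, while Cox8a encodes the form found in most tissues. Cox8b read -1.67, -3.54, -2.86 and -2.27 on HZ replicates 1 to 4 and -3.95, -4.55, -3.77 and -5.77 on KO replicates 1 to 4. Every KO value was below every HZ value, and KO replicate 4 was not well above background. The spread within each group was wide, with an SD of 0.80 in HZ and 0.91 in KO. The difference was -1.93 ± 0.52 (SE, with a 95% interval of -3.13 to -0.72), with limma's adjusted p of 0.44 (0.225 to 0.836 over the alternatives). Its size is uncertain so close to background, and it ranged from -2.24 to -1.05 over the alternatives. It was -1.05 with normexp on the median signal, and it was past the looser thresholds with HZ replicate 2 left out but not with any of the other 7 arrays left out.

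**Figure D2:**
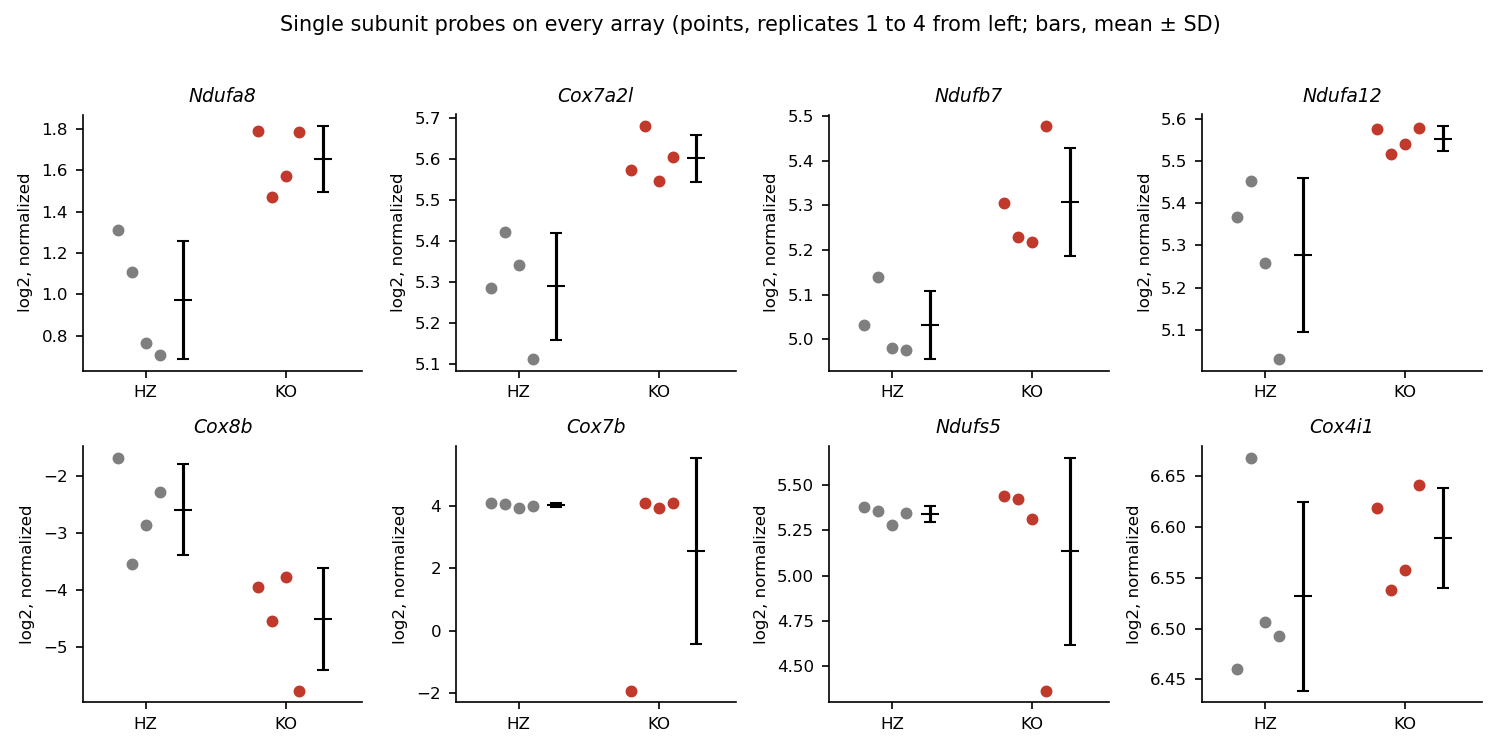
Values of 8 subunit probes on every array (log2 signal relative to the 75th percentile; grey, HZ; red, KO; replicates 1 to 4 from left; bars, mean ± SD), each with its own axis. Ndufa8, Cox7a2l, Ndufb7 and Ndufa12 have all KO points above the HZ points, Cox8b has all below, Cox7b and Ndufs5 have a single low KO array, and in Cox4i1 the groups overlap.

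Markers of the retinal pigment epithelium (RPE), the pigmented layer that adjoins the photoreceptors, varied over the arrays in a way like Cox8b. Of 25 RPE markers, 22 were tested, 21 of these were lower in KO and 1 higher, and their median difference was -1.29. The mean deviation of the 22 markers from their own 8-array means was 1.19, 0.02, 0.67 and 0.66 on HZ replicates 1 to 4 and -0.14, -0.66, -0.37 and -1.36 on KO replicates 1 to 4. HZ replicate 1 was the highest array and KO replicate 4 the lowest for both the RPE list and Cox8b, and HZ replicate 2 was the lowest HZ array for both. Rpe65, the retinoid isomerase that defines the RPE, was picked out after its values were seen. It read -0.55, -2.18, -1.06 and -1.21 in HZ and between -5.03 and -2.65 in KO. By qPCR the paper also reports less Rpe65 mRNA in photoreceptor cells isolated from KO mice than in those of controls, the direction of the labelled groups here. All 25 RPE markers were well above background on at least 1 array. The summed linear level of the list, relative to the 75th percentile, was 167, 136, 148 and 139 in HZ and 145, 142, 137 and 135 in KO. That sum is led by its brightest gene Otx2, which photoreceptors also express and which differed by 0.12 ± 0.07. Fewer cells of a type and less RNA per cell cannot be told apart in such bulk samples, and the part of RPE cells in the Cox8b difference was not tested. A list of 14 striated muscle genes, added after the values were seen because Cox8b is a muscle isoform, had 7 tested members. Of these, 6 were lower in KO and 1 higher, with a median difference of -0.17 and a lowest of -0.85. At an unadjusted p under 0.05, 1 member was lower, where 3.49% of all tested genes were. The 1 higher member was the brightest gene Mylpf (0.16 ± 0.11), which leads the summed level of the list; that sum was between 0.97 and 1.19 on all 8 arrays, and Ckm, Ckmt2, Myh4 and Ttn were not well above background on any array.

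**Figure D3:**
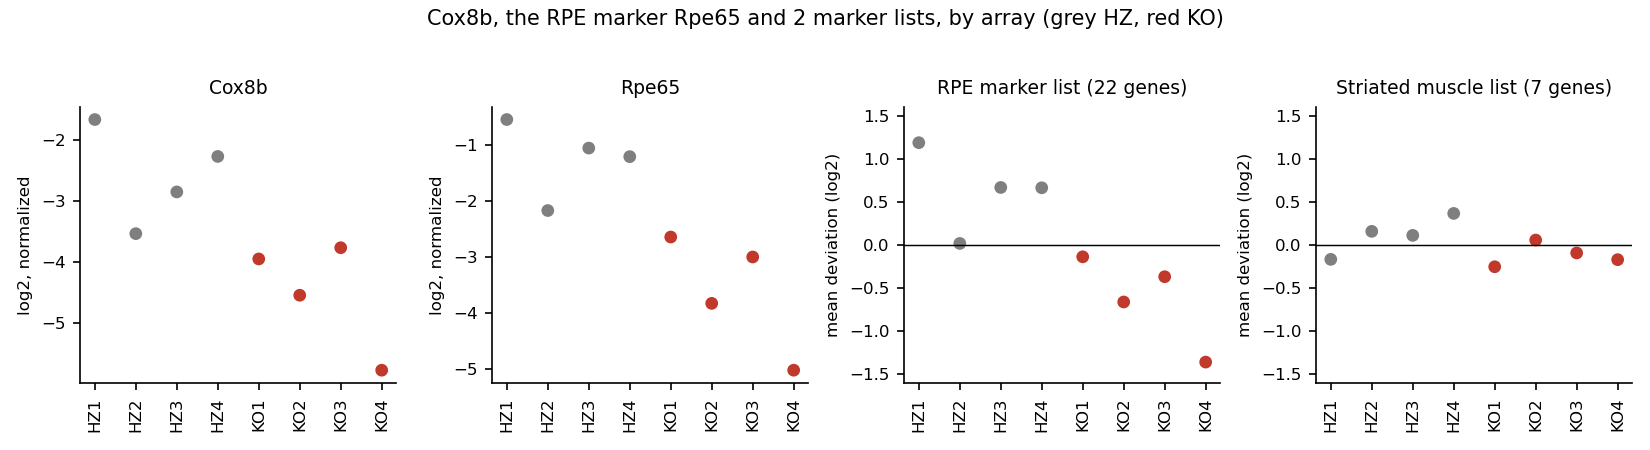
Cox8b and the RPE marker Rpe65 (log2 signal relative to the 75th percentile) and the mean deviation of the RPE markers (22 genes) and of striated muscle genes (7 genes, list added after the values were seen) from their 8-array means (log2), by array (grey, HZ; red, KO). Cox8b, Rpe65 and the RPE list are highest on HZ replicate 1 and lowest on KO replicate 4, while the muscle list stays between -0.25 and 0.36.

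The other tissue isoforms of complex IV lay on both sides of 0, and their differences were not tested against that of Cox8b. Cox6a2, a heart and muscle isoform, differed by 0.26 ± 0.40 and was well above background on 2 HZ and 4 KO arrays. Cox7a1, another muscle isoform, differed by 0.13 ± 0.09. The sign of Cox6a2 turned without KO replicate 2 (-0.08) and that of Cox7a1 with normexp on the median signal (-0.13), so no direction is given for either. The isoforms of most tissues, Cox6a1, Cox7a2 and Cox8a, differed by 0.03 ± 0.09, 0.13 ± 0.12 and 0.11 ± 0.09. Cox4i2, an isoform induced by low oxygen and abundant in lung, read -3.33, -3.55, -3.38 and -3.72 in HZ and -3.66, -3.84, -3.62 and -3.80 in KO. The groups of Cox4i2 overlapped and differed by -0.24 ± 0.11, while Cox4i1 differed by 0.06 ± 0.08 (0.27 with normexp). Cox6b2, a testis isoform, differed by -0.17 ± 0.12 and Cox6b1 by -0.00 ± 0.14. Cox5a, a core-associated subunit, differed by 0.12 ± 0.08.

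Cox7b, a small membrane subunit of complex IV, had a difference of -1.47 ± 1.29 that rested on a single array. It read 4.09, 4.08, 3.94 and 4.00 on HZ replicates 1 to 4 and 4.10, 3.95 and 4.11 on KO replicates 2 to 4, but -1.92 on KO replicate 1. On that array the single Cox7b spot had a processed signal of 237.5, against 14059 to 17294 on the other 7 arrays, and a local background of 57, against 27 to 30. The scanner software did not mark the spot as an outlier. Without KO replicate 1 the groups differed by 0.02. Cox7b was the only subunit more than 2 below the 7 other arrays where those 7 lay within 1 of each other; KO replicate 1 had 9 such tested probes in all. Without Cox7b and Cox8b, complex IV had 9 subunits higher and 4 lower and a median difference of 0.06.

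ATP synthase had 11 of 17 subunits higher and 6 lower, with a median difference of 0.05 and a narrow range from -0.07 to 0.21. The catalytic alpha and beta subunits Atp5a1 and Atp5b differed by 0.08 ± 0.08 and 0.04 ± 0.10, and the central stalk subunit Atp5c1 by -0.00 ± 0.09. The genes Atp5g1, Atp5g2 and Atp5g3 encode the same subunit c of the rotor ring with different import sequences, and they differed by -0.01 ± 0.12, 0.16 ± 0.10 and 0.07 ± 0.09. All 17 subunits had a 95% interval within 1.5-fold in either direction. Without KO replicate 1 the median was -0.00, so the direction for ATP synthase rested on that array.

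Atp5h, a subunit of the peripheral stalk, showed how far probes of 1 gene could part. Its brightest probe read 6.02, 6.16, 6.11 and 6.15 in HZ and 6.31, 6.30, 6.25 and 6.44 in KO, with a difference of 0.21 ± 0.08 (unadjusted p = 0.0284). The other probes of Atp5h differed by -0.69 ± 0.21 (unadjusted p = 0.0115) and 0.33 ± 0.10 (unadjusted p = 0.0142) in limma. The probe at -0.69 had groups that did not overlap and was past the looser thresholds in the lower direction (adjusted p = 0.487), against the direction of the brightest probe. The mean of its probes gave -0.05, and normexp on the median signal gave -0.08 for the brightest probe, so no direction is given for Atp5h. Over the family, 18 genes had several probes. In 14 of them all probes shared a direction, and in Atp5h, Atp5g1, Atp5md and Ndufv1 they did not. Of the 20 dimmer probes, 18 were higher in KO.

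Array by array, the subunits of a complex varied within each group as well as between the groups. The mean deviation of the complex I subunits was -0.03, 0.08, -0.09 and -0.18 on HZ replicates 1 to 4 and 0.11, 0.07, -0.00 and 0.05 on KO replicates 1 to 4. HZ replicate 2 lay among the KO arrays, and HZ replicate 4 was the lowest. HZ replicate 4 also had 458 spots with uneven pixels, where each of the 7 others had 2 to 25; the part of this in the low values was not tested. Without HZ replicate 4 the median difference of complex I was 0.07 and that of all subunits 0.05, and without HZ replicate 2 they were 0.17 and 0.12. The median of all tested genes moved too, to 0.02 and 0.06. For complex IV without Cox7b and Cox8b the deviations were -0.07, 0.13, -0.04 and -0.11 in HZ and 0.09, 0.05, -0.05 and 0.01 in KO, which overlapped.

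**Figure D4:**
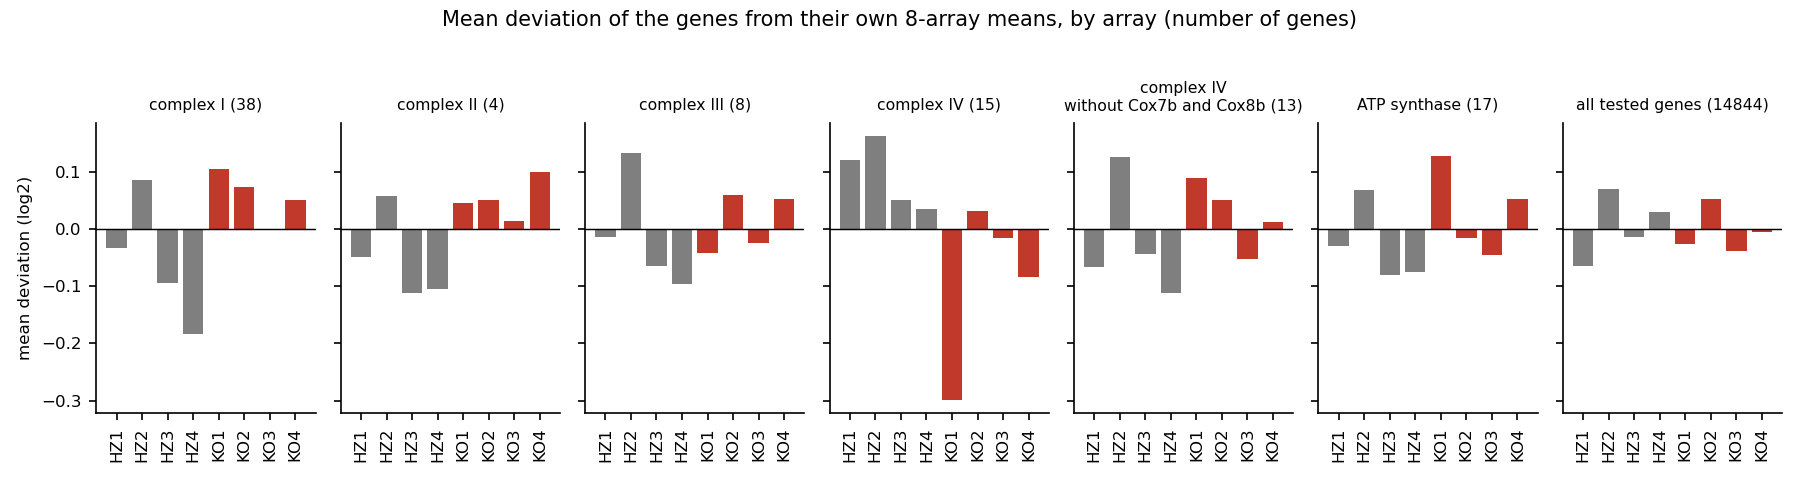
Mean deviation of the genes from their own 8-array means (log2) on each array (grey, HZ; red, KO), by complex, with the number of genes in brackets. HZ replicate 2 is above 0 and HZ replicate 4 below 0 in complexes I, II, III and ATP synthase, and the low bar of complex IV on KO replicate 1 is absent without Cox7b and Cox8b.

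The median of the subunits (0.08) was set beside those of 3 other large families of housekeeping genes, taken by symbol. Mitochondrial ribosomal proteins (78 tested) had a median difference of 0.11 with 69 higher and 9 lower, genes with symbols of cytosolic ribosomal proteins (90 tested) 0.10 with 70 higher and 20 lower, and genes with symbols of proteasome subunits (36 tested) 0.08 with 26 higher and 10 lower. Without the pseudogenes and retrogenes among the ribosomal symbols (85 tested) the median was 0.11 with 67 higher and 18 lower, and without Psmc3ip, a recombination factor, the proteasome symbols (35 tested) gave 0.08 with 26 higher and 9 lower. HZ replicate 4 was the lowest array in these 3 families as well, with mean deviations of -0.17, -0.12 and -0.15, and HZ replicate 2 was at 0.09, 0.13 and 0.14.

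Other gene lists of mitochondrial energy metabolism gave medians between 0.00 and 0.07. Of 55 assembly factors 53 were tested, with 38 higher and 15 lower and a median of 0.06. At an unadjusted p under 0.05, 4 were higher and 1 lower, where 5.81% and 3.49% of all tested genes were. The 1 lower member was Ndufaf8, a complex I assembly factor (-0.95 ± 0.30, limma's adjusted p = 0.498), which was also past the looser thresholds. Pet100, a complex IV assembly factor, differed by 0.50 ± 0.42 because HZ replicate 4 read -0.22 where the other arrays read 1.62 to 1.80. Of the 17 electron carriers, exchangers and inner membrane organisers, 10 were higher and 7 lower (median 0.03), with Gpd2 at 0.32 ± 0.16 and Chchd3 at -0.26 ± 0.13. Of the 13 genes of coenzyme Q synthesis, 7 were higher and 6 lower (median 0.00), with Coq4 at -0.52 ± 0.44 and Coq3 at 0.34 ± 0.26. Each rested on a single array: Coq4 read -0.98 on KO replicate 1 against 0.93 to 1.16 elsewhere, and Coq3 read -1.54 on HZ replicate 4 against -0.48 to -0.26. Of the 18 tricarboxylic acid cycle genes, 11 were higher and 7 lower (median 0.05), with Mdh2 at 0.32 ± 0.11 and Suclg2 at 0.50 ± 0.31. Suclg2 was above background on only 1 HZ array and 4 KO arrays, so the size of its difference is uncertain. Of the 17 regulators of mitochondrial genes, 11 were higher and 6 lower (median 0.07), with Ppargc1b at -0.31 ± 0.15 and Yy1 at -0.22 ± 0.19. The 13 subunits encoded by the mitochondrial genome had no probe matched by accession and were not analysed here.

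**Figure D5:**
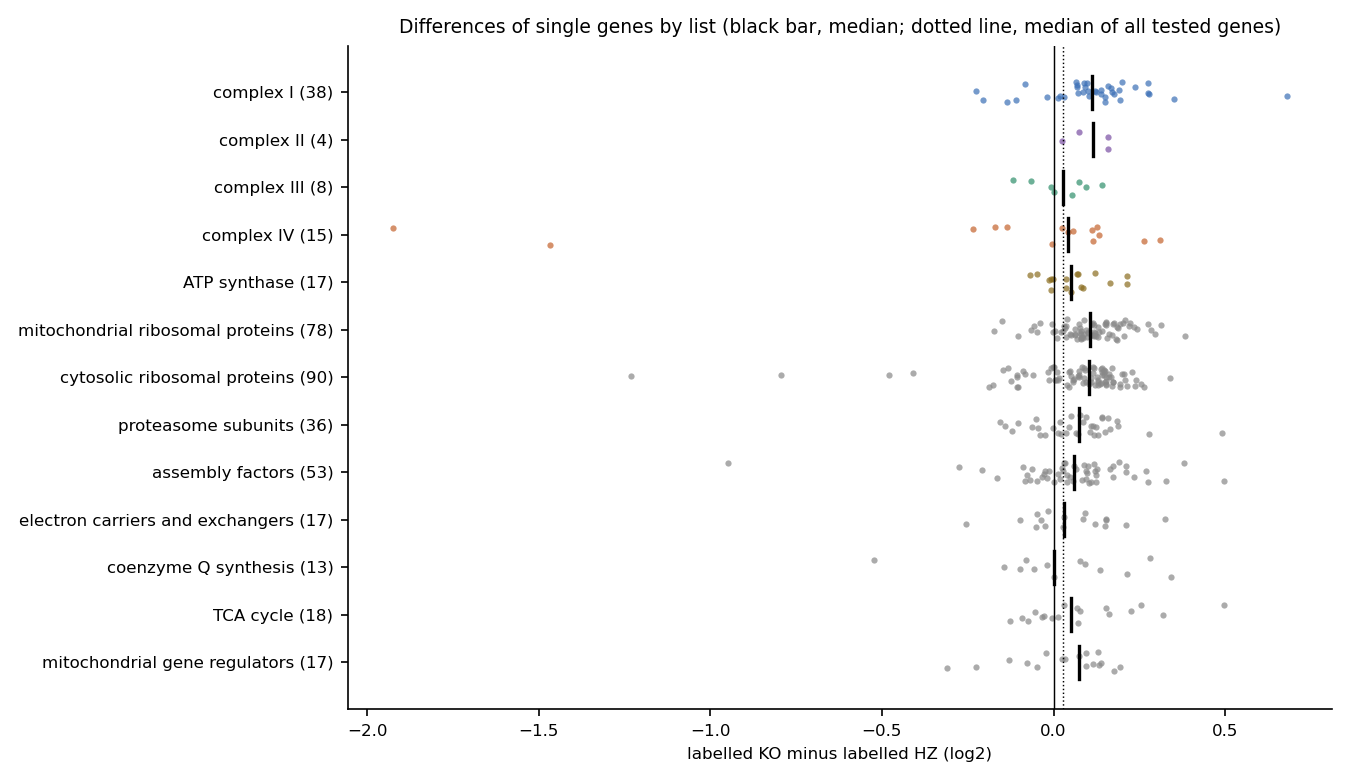
Difference of single genes between the labelled groups (KO minus HZ, log2; points, genes by their brightest probe; black bar, median; solid line, 0; dotted line, median of all tested genes) for the complexes and other gene lists, with the number of tested genes in brackets. The medians of all lists lie between 0.00 and 0.12.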

How the data were processed

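RNA of 8 samples was hybridised to 1-colour Agilent mouse arrays. Per the file headers and labels, the deposited intensity values are background-subtracted processed signals from Agilent Feature Extraction 10.7.1.1, with other columns holding spot flags. The authors' own table holds log2 values, which a comparison with the scanner values showed to be centred on each probe's median over the 8 arrays (slope of differences 0.997); it served as an alternative. Here the log2 processed signal minus each array's 75th percentile was used, spots marked as outliers were dropped and replicate spots averaged. Of 56605 probes, 32994 were named by RefSeq accession (GRCm38.p6 table, used for names). With 4 or more arrays clearly over background and 3 or more values per group required, 34303 probes were tested with limma 3.58.1 in R 4.3.3, two-sided, with Benjamini-Hochberg adjustment over all of them; the script was tested on simulated data. Arrays correlated with r from 0.974 to 0.992, no spots were saturated, and each array had 59.5% to 64.6% of its probes clearly over background; the number of arrays limits the precision.

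The members and lists were chosen with earlier results of these data known. Named genes are the canonical subunits and isoform families, the 2 highest and 2 lowest of each complex, subunits at an unadjusted p under 0.05 or without overlap (up to 15), the 2 largest differences of each other pathway list, the brightest gene of each cell type list, and Lpcat1. Only kinases and a binding protein that share the Rps symbols were left out of the cytosolic ribosomal list, which still holds pseudogenes and retrogenes; the ribosomal and proteasome lists without such symbols were added after the values were seen. With all 101 tested Rpl and Rps symbols its median was 0.10. The labels do not say that samples came from separate animals, so p-values measure the spread between these samples. Same-numbered samples of the 2 groups deviated together (r = 0.303, 0.337, 0.164 and 0.244, against -0.340 to 0.118 for other numbers), and a replicate block was run as an alternative to the unpaired fit. Same-numbered samples also shared a slide column. Alternatives were quantile normalization, normexp with offset 50 on the median and background signals, another percentile, other filters, trend and robust eBayes, a replicate block, the authors' log2 values, the mean of a gene's probes, the methods' t-test and leaving out each array.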

Additional observations from a re-analysis of the deposited data

Results flagged for a closer look

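Values were examined in 106 groups of 4 arrays (the named subunits and the mean deviations of each complex), and 3 arrays lay far from the other 3 of their group, where chance gives about 1 in 20 groups, or 5.3. Cox7b read -1.92 on KO replicate 1, against 3.95 to 4.11 on the other KO arrays. Ndufs5 read 4.36 on KO replicate 4, against 5.31 to 5.44. Sdhc read 3.02 on HZ replicate 2, against 2.82 to 2.84 on the other HZ arrays, which placed HZ replicate 2 within the KO range of 2.98 to 3.14. The cause of these values was not tested.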

How the results depend on the processing

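The median difference of all subunits stayed above 0 in every setting run, between 0.05 and 0.12, and so did those of complexes I and II. Of 47 named and tested subunits, 28 kept their sign in every alternative and 19 did not; of the 9 subunits at an unadjusted p under 0.05, 7 kept it. Atp5h changed sign with normexp (-0.0772) and with the mean of its probes (-0.0513), and Ndufa12 with normexp (-0.0041). For subunits at an unadjusted p under 0.05 in the lower direction the count of 1 became 3 with normexp, 2 with the percentile over bright probes, 2 with the replicate block and 0 with probes well above background on all 8 arrays, which leave out Cox8b. Under the looser thresholds the counts of 1 higher and 1 lower subunit became 0 and 0 without a filter, and the lower count 0 with the strictest filter. Over all probes, the looser thresholds gave 78 higher and 279 lower, which became 119 higher with quantile normalization, 9 and 32 without a filter, and 254 and 913 with the replicate block; the block also moved the lower probes at an unadjusted p under 0.05 from 1195 to 2082. The stricter thresholds gave 1 probe with quantile normalization, 17 with normexp, 3 with trend and robust eBayes and 2 with the methods' t-test in place of 0. Leaving out single arrays gave 3 to 11 higher and 1 to 2 lower subunits at an unadjusted p under 0.05, and 0 to 1 in each direction under the looser thresholds. Over all probes, leaving out single arrays gave 1030 to 2472 higher and 891 to 2525 lower at an unadjusted p under 0.05, and 0 to 373 higher and 0 to 1361 lower under the looser thresholds. Apart from the filters, which change the probes tested, the cause of these differences was not tested. Cox8b and Cox6a2 were close to background, which limits both.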

Other observations

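Of 9 red blood cell markers with a named probe, 5 were above background on no array, 3 were tested and those 3 were higher in KO (median 1.58). Hba-a1, the brightest, read -1.84, -3.11, -3.41 and -3.03 in HZ and 0.01, -1.74, -2.69 and -0.93 in KO. Of 13 microglia markers 12 were higher (median 0.75). In the higher direction 4 reached an unadjusted p under 0.05 in limma, where 5.81% of all tested genes did. The looser thresholds were passed by 0 of them, where 0.33% of all tested genes were higher. The mean deviation of the microglia markers overlapped between the groups (0.44 on HZ replicate 4, 0.00 on KO replicate 3). The brightest, Itgam, differed by -0.52 ± 0.26. Any link of either list to the subunit values was not tested.

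The remaining cell type lists had medians of -0.09 for rod (20 tested, brightest Pde6g, -0.17 ± 0.12), 0.15 for cone (12, Gngt2, 0.31 ± 0.22), -0.13 for Muller glia (13 of 14, Apoe, 0.02 ± 0.24), -0.39 for bipolar (11 of 12, Otx2), 0.07 for amacrine, horizontal and ganglion (5 of 14, Slc6a9, 0.07 ± 0.09) and 0.08 for vascular markers (7 of 10, Kdr, -0.79 ± 0.62).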
